A study of Homo sapiens with 12 samples.

Results

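Copper handling genes were measured on 12 arrays of HEK293T cells in which the ubiquitin ligase UBE4B, the histone demethylase LSD1 or both had been knocked down with shRNAs. The set held 10 of the 18417 genes with a value of their own: the exporters ATP7A and ATP7B, the importers SLC31A1 and SLC31A2, the chaperones ATOX1, CCS and SCO1, the metallothioneins MT1X and MT2A, and COMMD1. ATP7A was chosen by its measured change in the double knockdown against control. The other 9 were taken for their function, with earlier results of these data known. For these genes, values, calls and p-values of the double knockdown against control are therefore a description and not a test. All 10 were measured, none among the 40% of genes with the dimmest signal. Each gene was read from its brightest transcript cluster, the unit that these arrays report as 1 value from probes along the exons of a gene. MT2A alone of the 10 genes had more than 1 such cluster.

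The 4 groups of 3 arrays were shUBE4B+shLSD1 (the double knockdown), shUBE4B, shLSD1 and shCTRL, a nontargeting shRNA. The cells came from a human embryonic kidney line that carries the SV40 large T antigen. They received shRNA plasmids by transient transfection and were lysed 78 h later, so each value averages over cells with and without plasmid. Arrays of a group are labelled as biological replicates, with no word on separate cultures, and p-values measure the spread between these arrays. Titles of the third array of each single knockdown add a 3 to the shRNA name, without a reason given. The methods describe all groups as also expressing the misfolding mutant SOD1-G85R, which the labels do not name.

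Copper is needed by a small number of enzymes and is toxic when free. It enters cells through SLC31A1 (CTR1), is passed by chaperones to the mitochondria, to superoxide dismutase and to the pumps ATP7A and ATP7B in the Golgi, and is exported when these pumps move toward the cell surface. Metallothioneins bind surplus copper and zinc, and their genes are switched on by the metal-sensing factor MTF1 through short promoter motifs called metal response elements. Loss of ATP7A causes Menkes disease, and loss of ATP7B causes Wilson disease.

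The promoters of ATP7A, of the metallothionein MT2A and of the zinc exporter SLC30A1, another known target of MTF1, are shown because the results below turn on these genes: ATP7A and SLC30A1 had higher signals than control on all arrays that had received shUBE4B, and MT2A did not. SLC30A1 was also higher than control on all arrays with shLSD1 alone, where ATP7A overlapped with the control. Each is the stretch of 250 bases before the annotated start of the gene from RefSeq on GRCh38.p14, 5′ to 3′ on the strand of the gene. Capitals mark the core of the metal response element, searched as TGCACNC or TGCGCNC on both strands, with matches on opposite strands counted separately where they overlapped. ATP7A lies on the plus strand at chrX:77910443-77910692, SLC30A1 on the minus strand at chr1:211579162-211579411 and MT2A on the plus strand at chr16:56608334-56608583.
ATP7A: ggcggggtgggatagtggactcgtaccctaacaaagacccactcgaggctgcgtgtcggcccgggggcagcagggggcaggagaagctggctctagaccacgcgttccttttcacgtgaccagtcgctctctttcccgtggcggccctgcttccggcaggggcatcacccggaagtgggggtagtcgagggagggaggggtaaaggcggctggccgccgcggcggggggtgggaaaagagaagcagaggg
SLC30A1: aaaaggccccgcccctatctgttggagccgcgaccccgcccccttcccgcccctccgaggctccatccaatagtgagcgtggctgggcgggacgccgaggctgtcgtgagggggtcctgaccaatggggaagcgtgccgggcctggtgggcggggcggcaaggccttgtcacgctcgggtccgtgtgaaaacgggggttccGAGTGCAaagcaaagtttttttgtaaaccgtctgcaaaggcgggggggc
MT2A: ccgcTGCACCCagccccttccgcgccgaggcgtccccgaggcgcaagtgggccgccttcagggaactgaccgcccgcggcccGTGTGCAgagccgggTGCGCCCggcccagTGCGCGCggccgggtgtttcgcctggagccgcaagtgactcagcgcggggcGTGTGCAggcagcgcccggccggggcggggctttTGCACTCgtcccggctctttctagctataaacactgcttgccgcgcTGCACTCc
The MT2A promoter held 7 matches, that of MT1X 4, those of CCS and ATOX1 2 each, overlapping on opposite strands, and that of SLC30A1 1. COMMD1 had 1 match at 2 of its 3 start sites and ATP7B 2 matches at 1 of 3. ATP7A, SLC31A1 and SCO1 had 0. Of 35116 such windows in the table, 24.8% held at least 1 match and 0.0313% held 7 or more. A match is a description of the letters and not of a bound site. The table held 9 of the 10 genes.

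Both targets had lower mRNA where their own shRNAs had been given. UBE4B stood at 37.4% of the control level in the double knockdown and 37.8% in the UBE4B knockdown, and KDM1A, which encodes LSD1, at 46.0% in the double knockdown and 41.6% in the LSD1 knockdown. The correlation between arrays over all 33297 transcript clusters lay between 0.9902 and 0.9973. Array medians over these clusters, which the normalization sets to nearly the same value, lay between 7.00 and 7.06 on the log2 scale. Single genes could still deviate on 1 array, as COX7B did on shCTRL replicate 2. Markers of the line ranged from VIM, at 11.08 to 11.35 over the arrays, to PAX2, at 6.92 to 7.32. LIN28B, another of them, was higher in every knockdown, with log2 changes of 0.63, 0.60 and 0.66 in the double, UBE4B and LSD1 knockdowns (adjusted p = 0.00268, 0.00396 and 0.0131), and its part in the results below was not tested. Of 6 markers of other cell types, PTPRC, ALB, CD3E and VIL1 lay between 4.33 and 6.07, while COL1A1 (8.02 to 8.26) and CDX2 (9.17 to 9.45) did not lie low.

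ATP7A, the copper pump of most tissues, had the highest signals in the double knockdown, followed by the UBE4B knockdown. Its log2 signal (transcript cluster 8168472, X chromosome) was 9.17, 9.25 and 9.41 on the double knockdown arrays, 8.84, 9.00 and 9.11 on the UBE4B knockdown arrays, 8.43, 8.59 and 8.66 on the LSD1 knockdown arrays, and 8.22, 8.21 and 8.57 on the control arrays. The double knockdown arrays lay above all others, the UBE4B knockdown arrays lay above those of the LSD1 knockdown and the control, and the LSD1 knockdown and control arrays overlapped. Group means were 9.28 ± 0.12 with both shRNAs, 8.98 ± 0.13 with shUBE4B, 8.56 ± 0.12 with shLSD1 and 8.33 ± 0.20 with shCTRL (SD, n = 3 each). In these bulk samples, more cells with a transcript and more of it per cell cannot be told apart, nor can a change in total RNA be seen after quantile normalization.

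**Figure D1:**
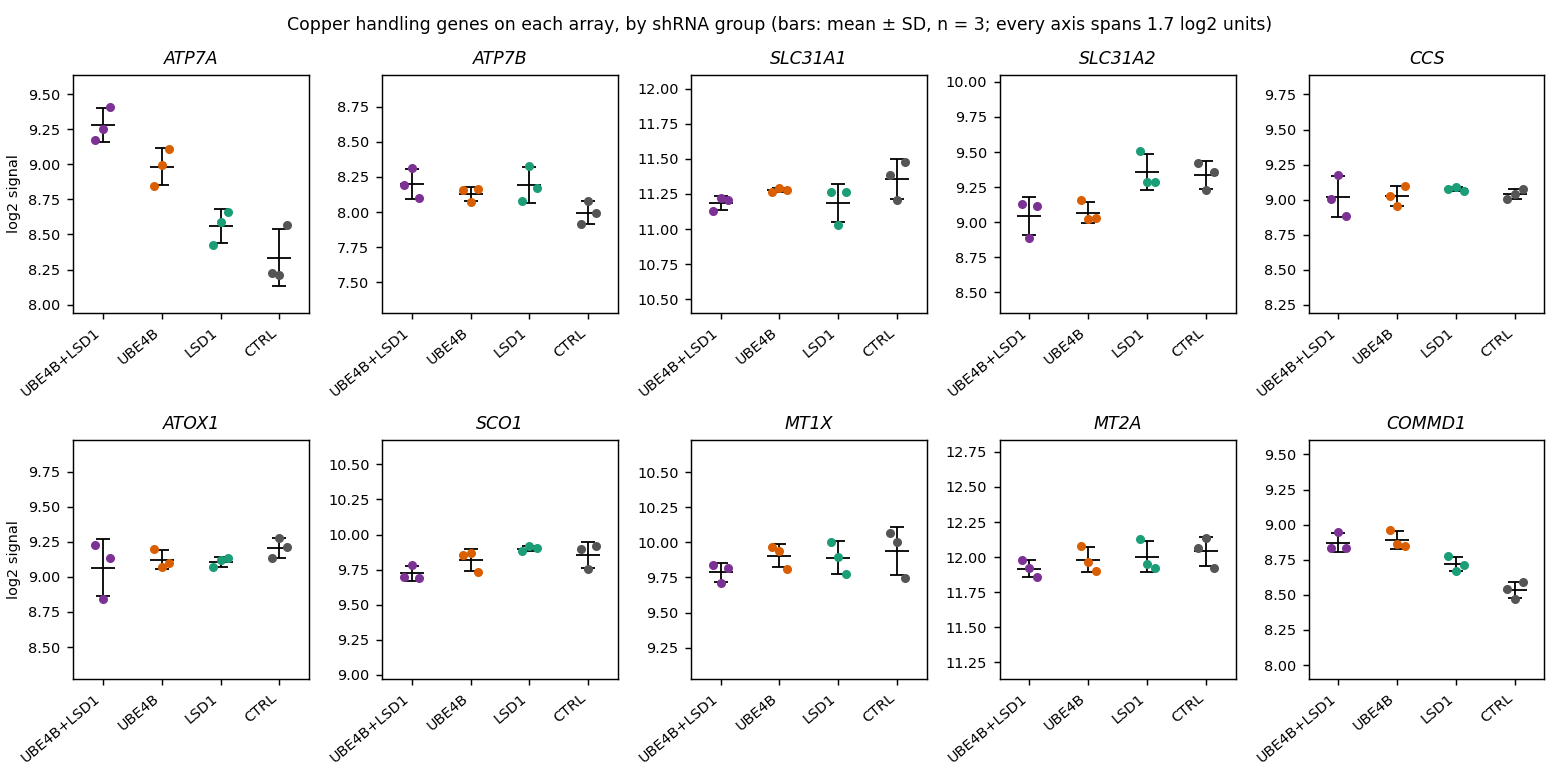
Log2 signal of the 10 copper handling genes on each of the 12 arrays, by shRNA group. Each point is 1 array, and the bars give mean and SD (n = 3). ATP7A has means of 9.28, 8.98, 8.56 and 8.33 in the order of the groups, and all knockdown points of COMMD1 lie above those of the control.

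Relative to control, the log2 change of ATP7A was 0.95 in the double knockdown (standard error 0.11, 95% interval 0.71 to 1.18), which is 1.93-fold. It was 0.65 in the UBE4B knockdown (interval 0.42 to 0.88, 1.57-fold) and 0.23 in the LSD1 knockdown (interval -0.00 to 0.46, 1.17-fold). Ordered from the highest change among 18417 genes, ATP7A took place 6 with both shRNAs, place 37 with shUBE4B and place 734 with shLSD1. These comparisons share the control arrays with the choice of the gene and are not tests. The change of the double knockdown exceeded the sum of both single changes by 0.07 (standard error 0.15), less than its error.

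The difference of ATP7A between the single knockdowns uses the means of neither group on which the gene was chosen, although limma also took the spread from the arrays of those groups. Its signal was higher in the UBE4B knockdown than in the LSD1 knockdown by 0.42 on the log2 scale (standard error 0.11, interval 0.19 to 0.65, 1.34-fold, adjusted p = 0.0367 from limma over all genes), with no overlap of the arrays. In this comparison 5.46% of all genes passed the same threshold, and 32.0% had groups that did not overlap. A fit on the 6 arrays of these 2 groups alone gave an adjusted p of 0.0202. In the fit over all arrays, the call ended when any 1 of the 6 arrays of the comparison was left out, with adjusted p-values of 0.0504 without shUBE4B replicate 1 to 0.146 without shLSD1 replicate 1, and log2 differences between 0.36 and 0.49.

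ATP7B, the second copper pump, known for its role in liver, showed smaller differences. Its log2 signal was 8.19, 8.31 and 8.10 with both shRNAs, 8.15, 8.07 and 8.16 with shUBE4B, 8.08, 8.33 and 8.17 with shLSD1, and 7.91, 8.08 and 8.00 with shCTRL. The 3 knockdown means stood within 0.07 of each other, above that of the control. The log2 change was 0.21 with both shRNAs, 0.13 with shUBE4B (adjusted p = 0.287 from limma) and 0.20 with shLSD1 (adjusted p = 0.287).

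Neither importer passed the test. SLC31A2 (CTR2), a relative of CTR1 found on internal membranes, had a log2 signal of 9.13, 8.89 and 9.11 with both shRNAs, 9.16, 9.02 and 9.03 with shUBE4B, 9.51, 9.29 and 9.28 with shLSD1, and 9.42, 9.23 and 9.36 with shCTRL. All arrays that had received shUBE4B lay below all arrays that had not. The log2 change was -0.29 in the double knockdown and -0.27 in the UBE4B knockdown (interval -0.45 to -0.08, adjusted p = 0.0695), and 0.02 in the LSD1 knockdown (adjusted p = 0.94). Set against the LSD1 knockdown, the UBE4B knockdown differed by -0.29 (adjusted p = 0.0744) and the double knockdown by -0.32 (adjusted p = 0.0765). SLC31A1, the main copper importer, had log2 changes of -0.17, -0.08 and -0.17 in the double, UBE4B and LSD1 knockdowns, the last of these with an adjusted p of 0.383, and its arrays overlapped with those of the control in each case.

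COMMD1, a protein of the COMMD family that binds ATP7A and ATP7B and takes part in their traffic through endosomes, rose in the UBE4B knockdown. Its log2 signal was 8.84, 8.95 and 8.83 with both shRNAs, 8.96, 8.86 and 8.85 with shUBE4B, 8.78, 8.67 and 8.71 with shLSD1, and 8.54, 8.47 and 8.59 with shCTRL. Every knockdown array lay above every control array, and the LSD1 knockdown arrays lay below those that had received shUBE4B. The rise in the UBE4B knockdown was 0.36 on the log2 scale (standard error 0.06, 1.28-fold, adjusted p = 0.00426). The change was 0.34 in the double knockdown and 0.19 in the LSD1 knockdown (interval 0.05 to 0.32, adjusted p = 0.21). The single knockdowns differed by 0.17 (adjusted p = 0.142), and the double knockdown stood -0.20 from the sum of both single changes (interval -0.40 to -0.01, adjusted p = 0.365).

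Chaperones and metallothioneins gave no call in any comparison, beside shares of all genes from 0% for the interaction to 10.1% in the UBE4B knockdown. ATOX1 hands copper to both pumps, CCS loads it into superoxide dismutase, and SCO1 delivers it to cytochrome c oxidase. Their log2 changes with shUBE4B were -0.09, -0.01 and -0.04, and with shLSD1 -0.10, 0.04 and 0.04, with adjusted p-values between 0.556 and 0.935. In the double knockdown they were -0.14 for ATOX1, -0.02 for CCS and -0.13 for SCO1. The 95% interval of CCS in the UBE4B knockdown ran from -0.17 to 0.15, and that of ATOX1 from -0.27 to 0.10.

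The metallothionein MT2A, the gene with 7 motif matches above, had a log2 signal of 11.98, 11.92 and 11.86 with both shRNAs, 12.08, 11.96 and 11.90 with shUBE4B, 12.13, 11.95 and 11.92 with shLSD1, and 12.06, 12.13 and 11.93 with shCTRL. All 4 groups overlapped. The log2 changes were -0.12, -0.06 (adjusted p = 0.655) and -0.04 (adjusted p = 0.889) in the double, UBE4B and LSD1 knockdowns. For MT1X they were -0.15, -0.03 (adjusted p = 0.838) and -0.05 (adjusted p = 0.875). Metallothionein genes are near copies of each other, so their probes can share signal and single members are uncertain. The 3 clusters of MT2A gave changes of -0.12, -0.09 and -0.08 in the double knockdown.

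**Figure D2:**
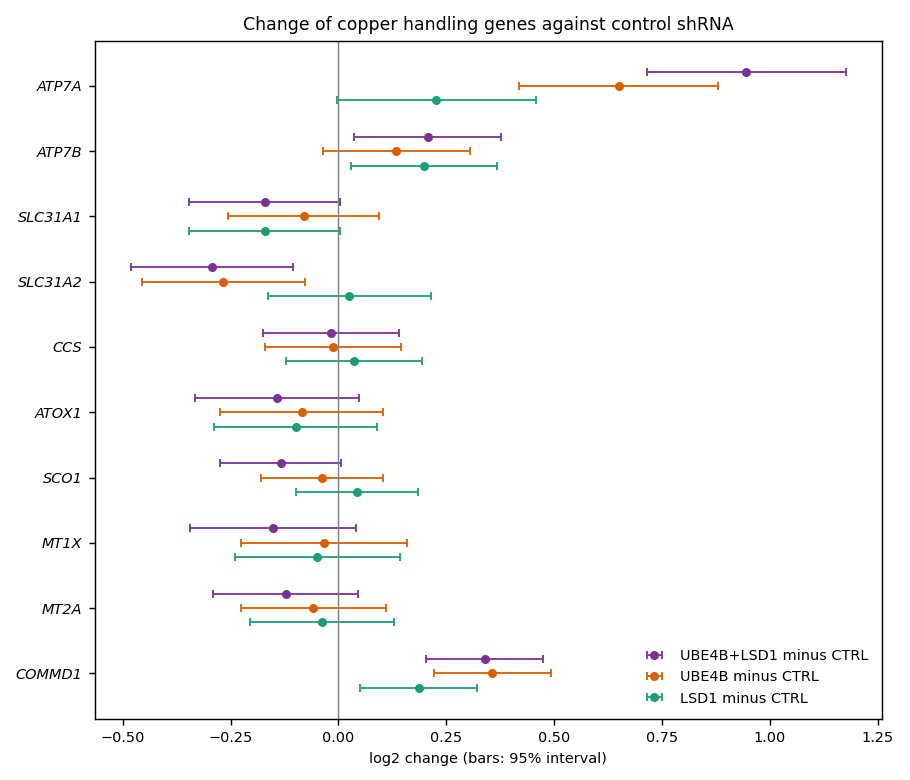
Log2 change against control shRNA for each of the 10 genes in the double, UBE4B and LSD1 knockdowns, with bars for the 95% interval from limma. ATP7A stands apart at 0.95 and 0.65 with shUBE4B, COMMD1 lies above 0 in all 3, and the intervals of CCS, ATOX1, SCO1, MT1X and MT2A span 0.

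Counted over the set, 2 of 10 genes were called higher and 0 lower in the double knockdown, where 7.56% of all genes were called; ATP7A had been chosen there, and the count is a description. In the UBE4B knockdown the same count of 2 of 10 (COMMD1 and ATP7A, which was chosen against the same control arrays) stood beside 10.1% of all genes, and in the LSD1 knockdown 0 of 10 beside 0.820%. Against the UBE4B knockdown the double knockdown gave 0 of 10 (0.147% of all genes), and against the LSD1 knockdown 1 of 10 (2.79%). That 1 gene was ATP7A, and since the double knockdown arrays had served to choose it, this too is a description. The median log2 change of the 9 genes other than ATP7A was -0.13 with both shRNAs, -0.04 with shUBE4B and 0.02 with shLSD1, beside -0.01, -0.03 and -0.01 over all genes. Arrays of the 2 groups did not overlap for 4 of the 10 genes in the double knockdown against control (21.9% of all genes), 3 with shUBE4B (30.3%) and 2 with shLSD1 (16.6%). The count was 2 for the double against the UBE4B knockdown (23.1%), and 4 each for the double (23.0%) and the UBE4B knockdown (32.0%) against the LSD1 knockdown. For the interaction of the knockdowns limma called 0 genes (0%). At an unadjusted p under 0.05 there were 2411 of 18417 genes and 1 of the 10, COMMD1, which is a similar share.

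A wider list of 66 genes of copper biology was set up by function, of which 61 were measured and 14 lay among the 40% dimmest. In the double knockdown 2 of 61 rose and 2 fell, beside 3.74% and 3.83% of all genes. In the UBE4B knockdown 4 rose and 5 fell, beside 5.59% and 4.47%. The double knockdown gave 2 calls in all without shUBE4B+shLSD1 replicate 2 and 7 without shUBE4B replicate 3, and the UBE4B knockdown gave 4, 5 and 5 without shUBE4B replicate 1, 2 or 3. Shares over all genes were not computed for these fits. With shLSD1 alone 0 of 61 passed limma's threshold, beside 0.820% of all genes. The median log2 change of the list was 0.01, -0.06 and -0.03 in the double, UBE4B and LSD1 knockdowns.

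**Figure D3:**
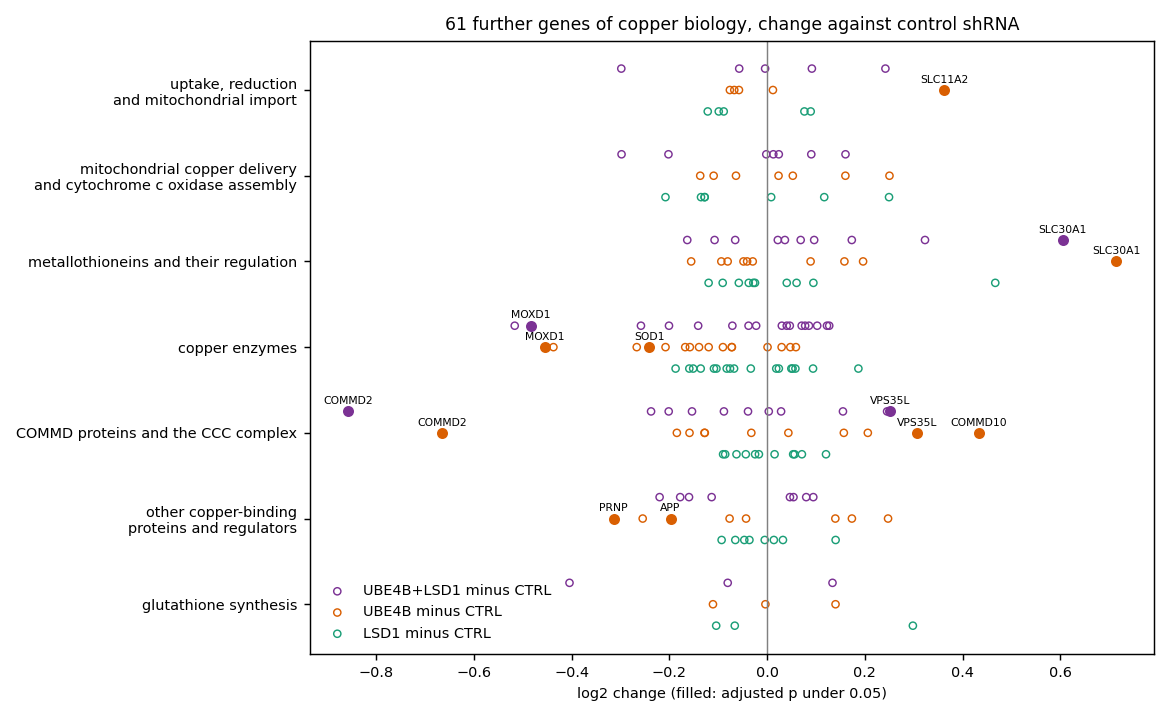
Log2 change against control shRNA for 61 further genes of copper biology in 7 groups, with filled and named points for genes at an adjusted p under 0.05 in limma. SLC30A1 rose and COMMD2 fell the most among the genes called, both in the double and in the UBE4B knockdown.

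Of 10 measured genes in the group of metallothioneins and their regulation, 1 rose in the double and in the UBE4B knockdown and 0 fell, beside 3.74% and 5.59% of all genes called higher. This was SLC30A1 (ZnT1), which exports zinc from the cytosol. Its log2 signal was 7.84, 7.58 and 7.45 with both shRNAs, 7.82, 7.76 and 7.61 with shUBE4B, 7.39, 7.65 and 7.41 with shLSD1, and 7.10, 6.82 and 7.13 with shCTRL. Every knockdown array lay above every control array. The rise was 0.60 in the double knockdown (1.52-fold, adjusted p = 0.00541) and 0.71 in the UBE4B knockdown (1.64-fold, adjusted p = 0.00228), and the LSD1 knockdown gave 0.47 (adjusted p = 0.0775). MTF1, the metal-sensing factor itself, had changes of 0.17 and 0.20 in the double and UBE4B knockdowns and was not called, nor was any metallothionein gene. MT1E, among the 40% dimmest genes, changed by 0.32 in the double knockdown (interval 0.08 to 0.56, adjusted p = 0.101 from limma). Of the 10 genes of the group, 7 had changes above 0 there and 3 below.

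COMMD proteins join CCDC22, CCDC93 and VPS35L in complexes that return membrane proteins, the copper pumps among them, from endosomes to the cell surface. Of 11 measured genes of this group, 1 rose and 1 fell in the double knockdown, and 2 rose and 1 fell in the UBE4B knockdown, beside 7.56% and 10.1% of all genes called either way. COMMD1 was counted with the copper handling genes above and is not among these 11. COMMD2 had a log2 signal of 8.78, 9.07 and 9.01 with both shRNAs, 9.23, 9.19 and 9.02 with shUBE4B, 9.75, 9.86 and 9.78 with shLSD1, and 9.91, 9.66 and 9.87 with shCTRL. Arrays with shUBE4B lay below all others, and those with shLSD1 alone overlapped with the control. With both shRNAs it fell by 0.86 on the log2 scale (adjusted p = 0.000128) and by 0.66 in the UBE4B knockdown (adjusted p = 0.00107), and the LSD1 knockdown gave -0.02 (adjusted p = 0.962). COMMD2 was also lower in the UBE4B than in the LSD1 knockdown (log2 difference -0.65, adjusted p = 0.00167).

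VPS35L rose by 0.25 with both shRNAs (adjusted p = 0.0304) and by 0.31 with shUBE4B (adjusted p = 0.0104) on the log2 scale. Its arrays lay at 9.53 to 9.59 in the UBE4B knockdown, against 9.17 to 9.36 in the control. Its call in the double knockdown ended without shCTRL replicate 1 or 2 (adjusted p = 0.0865 and 0.0662) or without shUBE4B+shLSD1 replicate 2 or 3 (0.0804 and 0.11). COMMD10 rose in the UBE4B knockdown, by 0.43 (adjusted p = 0.0175), a call that ended without shUBE4B replicate 1 (0.0749) or 3 (0.0555). With both shRNAs it changed by 0.25 (adjusted p = 0.177).

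**Figure D4:**
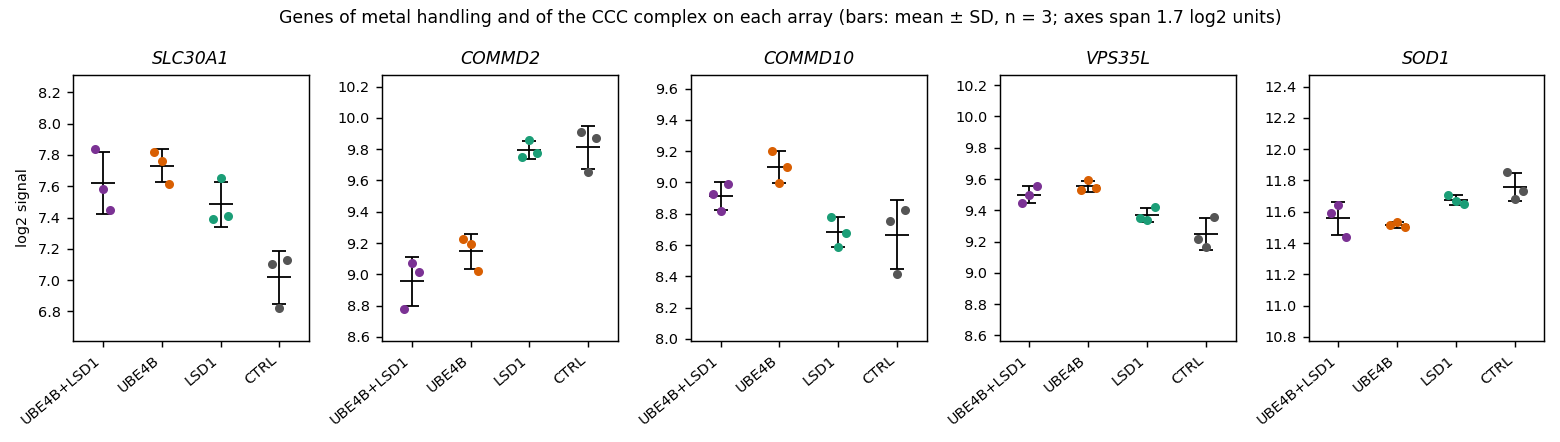
Log2 signal of SLC30A1, COMMD2, COMMD10, VPS35L and SOD1 on each of the 12 arrays by shRNA group. Each point is 1 array, and the bars give mean and SD (n = 3). COMMD2 has means of 8.95 and 9.15 where shUBE4B was present and 9.80 and 9.81 where it was not, and SLC30A1 is lowest in the control.

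Copper enzymes gave 1 lower gene of 17 in the double knockdown and 2 in the UBE4B knockdown, with none higher, which is 5.88% and 11.8% called beside 7.56% and 10.1% of all genes. MOXD1, a monooxygenase related to dopamine beta-hydroxylase, fell by 0.48 in the double knockdown (adjusted p = 0.0264) and by 0.45 in the UBE4B knockdown (adjusted p = 0.0305). Both calls ended without either of 2 control arrays (replicates 2 and 3, adjusted p between 0.0543 and 0.0805) or without replicate 1 or 2 of the knockdown itself (0.0888 to 0.12). SOD1, the copper and zinc superoxide dismutase that CCS loads, had a log2 signal of 11.59, 11.64 and 11.44 with both shRNAs, 11.51, 11.54 and 11.50 with shUBE4B, 11.71, 11.67 and 11.65 with shLSD1, and 11.86, 11.68 and 11.74 with shCTRL. It fell by 0.24 in the UBE4B knockdown (adjusted p = 0.0401), and with both shRNAs it changed by -0.20 (adjusted p = 0.0929). The call ended, with adjusted p-values up to 0.11, when any array other than shCTRL replicate 2 and shUBE4B+shLSD1 replicates 2 and 3 was left out, and transcripts of the mutant SOD1 that the methods describe cannot be told apart from those of the cell's own gene.

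In the group of uptake and reduction, SLC11A2 (DMT1), which carries iron and other divalent metals, rose by 0.36 in the UBE4B knockdown (adjusted p = 0.0135, or 0.0565 without shUBE4B replicate 3), and with both shRNAs it changed by 0.24 (adjusted p = 0.0867). Among other copper-binding proteins, the prion protein gene PRNP fell by 0.31 in the UBE4B knockdown (adjusted p = 0.0161) and the amyloid precursor gene APP by 0.20 (adjusted p = 0.0344). The PRNP call ended without shUBE4B replicate 1 (0.0749) or 2 (0.053), and that of APP without any 1 shUBE4B array (0.0844 to 0.107), shCTRL replicate 1 (0.0709) or 3 (0.0603), or shLSD1 replicate 2 (0.0511). No gene of mitochondrial copper delivery (7 measured) or of glutathione synthesis (3 measured) was called against control. Over all genes, 7.56%, 10.1% and 0.820% were called in the double, UBE4B and LSD1 knockdowns, so 0 calls in groups this small say little. Between the single knockdowns 3 of the 61 genes were higher and 4 lower with shUBE4B, beside 2.88% and 2.58% of all genes.

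The genes around ATP7A on the X chromosome were measured as well. Of the 4 nearest measured genes on each side, MAGT1 was the one called against control. Of all genes, 7.56%, 10.1% and 0.820% were called in the double, UBE4B and LSD1 knockdowns. MAGT1 encodes a subunit of the oligosaccharyltransferase that has also been described as a magnesium transporter. Its log2 signal was 10.00, 9.98 and 10.09 with both shRNAs, 9.39, 9.54 and 9.44 with shUBE4B, 9.46, 9.56 and 9.60 with shLSD1, and 9.12, 9.02 and 9.15 with shCTRL. The groups did not overlap except for the single knockdowns with each other. MAGT1 rose by 0.93 in the double knockdown (1.90-fold, adjusted p = 1.36e-05), by 0.36 in the UBE4B knockdown (adjusted p = 0.00546) and by 0.44 in the LSD1 knockdown (adjusted p = 0.0119), and the double knockdown exceeded the UBE4B knockdown by 0.57 (adjusted p = 0.00337) and the LSD1 knockdown by 0.49 (adjusted p = 0.00222). The call in the LSD1 knockdown ended without shLSD1 replicate 2 (0.069) or 3 (0.0713). COX7B, a subunit of cytochrome c oxidase and the nearest measured gene before ATP7A, had changes of -0.15, 0.12 and -0.02 in the double, UBE4B and LSD1 knockdowns, with log2 signals of 9.90, 8.87 and 9.62 on the control arrays. PGK1, the glycolytic enzyme gene after ATP7A, had changes of -0.18 (adjusted p = 0.162), -0.24 (adjusted p = 0.0551) and -0.05 (adjusted p = 0.843). FGF16, ATRX, TAF9B, CYSLTR1 and RTL3 were not called against control. Between the single knockdowns, TAF9B, which encodes a subunit of transcription factor complexes, was the 1 neighbour called, beside 5.46% of all genes. Its log2 signal was 10.98, 10.82 and 10.81 with shUBE4B, against 10.45, 10.69 and 10.44 with shLSD1. The difference was 0.34 (adjusted p = 0.0233), and the call ended without any 1 shUBE4B array or without shLSD1 replicate 1 or 3 (0.0548 to 0.105).

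**Figure D5:**
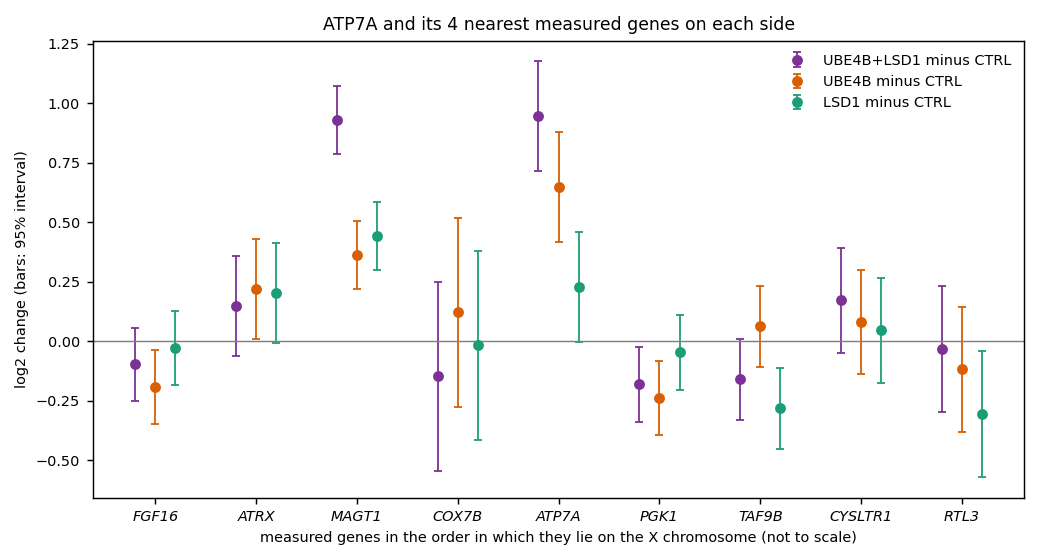
Log2 change against control shRNA of ATP7A and of the 4 nearest measured genes on each side, in their order on the X chromosome and not to scale, with bars for the 95% interval from limma. MAGT1 and ATP7A have changes of 0.93 and 0.95 in the double knockdown, with COX7B between them at -0.15.

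The genes whose signals over the 12 arrays were most like those of ATP7A were SEC23A, a coat protein of vesicles that leave the endoplasmic reticulum (Pearson's r = 0.99), CCDC122 (0.97), the ubiquitin ligase ANKIB1 (0.97), the secreted protein SPON1 (0.96) and RMND5A, a subunit of the CTLH ubiquitin ligase (0.96). In all, 94 of 18416 genes had an r over 0.9. All 12 points share the 4 group means, so these values describe the order of the groups together with differences between arrays of a group. SEC23A, like ATP7A, rose from replicate 1 to replicate 3 in every knockdown group. Of the copper handling genes COMMD1 (0.81) and, with the opposite sign, SLC31A2 (-0.79) and MT2A (-0.72) came closest, while CCS had an r of -0.18. SEC23A had group means of 11.23 ± 0.07 with both shRNAs, 11.06 ± 0.09 with shUBE4B, 10.69 ± 0.08 with shLSD1 and 10.45 ± 0.10 with shCTRL (SD, n = 3 each), the same order as ATP7A.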

How the data were processed

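RNA of HEK293T cells was hybridized to Affymetrix Human Gene 1.0 ST arrays, 3 for each of 4 shRNA groups. The labels name the Ambion WT Expression kit and the methods a 3′ IVT kit. The authors deposited log2 values per transcript cluster, computed in Partek with RMA, that is, background correction, normalization of all arrays to 1 distribution of values and a summary of probes. The build was hg19. The versions of these tools are not given in the sources used here. RMA draws low signals together, which understates changes of dim genes, and precision is limited by the number of arrays.

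Of 33297 clusters, 19460 had 1 gene symbol, 1754 had more than 1, and 12083 had none in the table used. The brightest cluster stood for each of 18417 genes, and 31 symbols could not be updated. Groups were compared with limma 3.58.1 in R 4.3.3 (lmFit and eBayes, 4 group means, 8 residual and 5.13 prior degrees of freedom). A call meant a p under 0.05 after Benjamini-Hochberg adjustment over all genes. The comparisons with control share the control arrays. The procedure was tested on simulated data. The genes, the wider list and the tests were chosen with earlier results of these data known. Named were all 10 genes, the targeted genes, SOD1, up to 3 called genes of each group of the wider list, the 4 nearest measured genes on each side of ATP7A and the 5 genes most correlated with it. MTF1 and MT1E were named after their values were seen. COMMD3, COX16, COX17, COX19 and MT1A were not analysed here. The 22 alternatives left out each array in turn or used trend and robust moderation, only 6 arrays per fit, the replicate number as a block, weights for arrays, 2 other normalizations, 2 other rules for clusters, removal of the 40% dimmest genes and the methods' t-test. Promoters came from RefSeq (GRCh38.p14). Figures were drawn with Python 3.11.15 and matplotlib 3.10.9.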

Additional observations from a re-analysis of the deposited data

How the results depend on the processing

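No value of a called gene changed sign in 22 alternatives. Except for the methods' t-test, the share of all genes called was not computed for these. Their counts describe the listed genes only and do not single out copper genes. Leaving out 1 array at a time, the ATP7A difference between the UBE4B and LSD1 knockdowns ranged from 0.36 to 0.49, and the count of the 10 genes called there from 0 to 2 (main 1, and 2 without shCTRL replicate 2). The wider list gave 2 to 7 calls in the double knockdown (main 4, with 2 without shUBE4B+shLSD1 replicate 2 and 7 without shUBE4B replicate 3) and 4 to 9 in the UBE4B knockdown (main 9, with 4, 5 and 5 without shUBE4B replicate 1, 2 or 3).

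For the 10 genes, counts between the UBE4B and LSD1 knockdowns were 2 with trend and robust settings, on the 6 arrays, with a further quantile normalization and without the 40% dimmest genes, and 3 with array weights. The double against the LSD1 knockdown (main 1) gave 2 with trend and robust settings and without the dimmest genes. On the 6 arrays, the double knockdown gave 1 against control (main 2), since COMMD1 had an adjusted p of 0.0588. The wider list in the double knockdown gave 10 calls with trend and robust settings, 2 on 6 arrays and 11 without the dimmest genes. This removed 14 genes of the list. In the UBE4B knockdown the list gave 4 on 6 arrays. In the LSD1 knockdown it gave 1 call (main 0) with trend and robust settings and 1 without the dimmest genes. SLC31A2 was called lower in the double and UBE4B knockdowns under 5 of 22 alternatives each.

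The methods' t-test with Benjamini-Hochberg adjustment called 0 of the 10 genes in each of the 6 comparisons between groups. It called 0 of the wider list against control, with 48, 46 and 1 genes in all in the double, UBE4B and LSD1 knockdowns. Between the single knockdowns it called 663 genes, 4 of them on the wider list. The ATP7A difference of 0.42 had an adjusted p of 0.12, UBE4B in the double knockdown (-1.42) one of 0.0578, and KDM1A one of 0.145 in the LSD1 knockdown (-1.26) and 0.0659 in the double knockdown (-1.12). At the methods' limits of 1.2-fold and unadjusted p under 0.05, this t-test passed 0 of the 10 with shLSD1. With both shRNAs and with shUBE4B it passed the chosen gene ATP7A, COMMD1 (both higher) and SLC31A2 (lower). Of 18417 genes, 585 and 842 passed higher, 626 and 721 lower.

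The deviations of same-numbered arrays of different groups correlated at a median of 0.13 (-0.08 to 0.33, over 0.1 in 10 of 18 pairs), and those of differently numbered arrays at a median of -0.03 (over 0.1 in 2 of 36). Of the 12 arrays, 9 had their highest mean correlation with arrays of their own number. The labels tie the numbers to no shared batch. The 8 same-numbered pairs not over 0.1 included all pairs of replicate 2, at -0.08 to 0.08. Whether the arrays were paired was not settled, and the unpaired main fit keeps any shared part in the spread. With replicate number as a block, the ATP7A difference of 0.42 had an adjusted p of 0.00425. The block gave 2 of the 10 genes each for the UBE4B and the double against the LSD1 knockdown. It gave 10 of the wider list in the double knockdown. The interaction could not be fitted on 6 arrays or with the methods' t-test. The cause of these shifts was not tested.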
